A study of Mus musculus with 24 samples.

Results

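The H3K4me2 profiles of Prdm16 KO cells were compared between embryonic stem (ES) cells and embryoid bodies (EB). The comparison rests on 4 peak lists of 24 in the series, ES KO replicates 1 and 2 and EB KO replicates 1 and 2. They were chosen by antibody, genotype and stage from the sample titles. The series profiled PRDM16, H3K4me1 and H3K4me2 by CUT&RUN, a method in which an antibody holds a nuclease on chromatin and the released fragments are sequenced, in wild-type (WT) and Prdm16 KO cells at both stages. It holds 12 groups of 2 libraries, all of C57BL/6 background. The ES cells were grown in medium with LIF on Matrigel plates. EB, floating aggregates in which ES cells begin to differentiate, were taken at day 6. No other treatment is named, and the 4 WT H3K4me2 lists come from the same stages, background and antibody (Millipore 07-030) without the KO. The labels name neither the Prdm16 allele, nor the number of clones, nor whether the 2 libraries of a group are separate cultures, so p-values cover only library-to-library spread, possibly technical. The titles put ES KO replicate 2, and among the WT lists EB replicate 2, in another library series than the rest.

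Dimethylation of lysine 4 of histone H3 is deposited by the SET1 and MLL (KMT2) complexes and marks both active or poised promoters and distal enhancers. H3K4 methylation covers CpG-rich promoters in most cell types, whereas marked sites far from genes differ more between cell types. PRDM16 carries a PR domain and zinc fingers and is known for its role in brown fat and in stem cells of blood and brain.

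Peaks of the 4 KO lists on chromosomes 1 to 19, X and Y were merged where they overlapped, which gave 38913 regions. A region with a peak in both ES lists and neither EB list is called ES-only, the reverse EB-only, and a region with a peak in all 4 lists is called shared. The same terms are used for genes, which were counted as marked when a peak lay within 2500 bp of either gene end. Coordinates are mm10 and GRCm38.p6, which have the same coordinates. A list records where the authors called a peak, not how much mark there was. Gapdh, a highly active gene in nearly all cells, had no peak within 20000 bp in either ES KO list and 1 in each EB KO list, so a missing peak was not read as a missing mark. Read depth is unknown for every list.

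Promoter sequences of 6 genes show the kinds of start site that the stage-only regions hold. They are the 250 bases before the RefSeq transcription start (GRCm38.p6), 5′ to 3′ on the gene's strand, with every CG dinucleotide in capitals. Zfp36l3, a zinc finger gene of the placenta on the X chromosome (chrX:53776395-53776644, minus strand), and Gm40881 (chr12:20311963-20312212, plus strand) start in the highest-scoring ES-only regions that hold the start of a RefSeq promoter entry, and Atoh1, which encodes a proneural transcription factor (chr6:64728875-64729124, plus strand), and Rbmxl1 (chr8:78508929-78509178, minus strand) in those of the EB-only regions. Sycp3, a component of the meiotic synaptonemal complex (chr10:88459337-88459586, plus strand, ES-only), and Pou5f1, which encodes the pluripotency factor OCT4 (chr17:35505782-35506031, plus strand, EB-only), were added after their values were seen.
Zfp36l3: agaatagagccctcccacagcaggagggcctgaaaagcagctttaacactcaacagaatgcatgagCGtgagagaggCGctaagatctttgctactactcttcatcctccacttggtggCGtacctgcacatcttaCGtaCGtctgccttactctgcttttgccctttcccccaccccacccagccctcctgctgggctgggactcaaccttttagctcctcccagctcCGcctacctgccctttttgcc
Gm40881: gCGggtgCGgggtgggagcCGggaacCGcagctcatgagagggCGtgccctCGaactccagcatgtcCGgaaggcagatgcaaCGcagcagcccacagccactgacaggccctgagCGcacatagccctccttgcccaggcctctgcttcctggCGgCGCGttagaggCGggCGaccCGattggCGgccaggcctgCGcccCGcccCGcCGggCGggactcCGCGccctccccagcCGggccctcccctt
Sycp3: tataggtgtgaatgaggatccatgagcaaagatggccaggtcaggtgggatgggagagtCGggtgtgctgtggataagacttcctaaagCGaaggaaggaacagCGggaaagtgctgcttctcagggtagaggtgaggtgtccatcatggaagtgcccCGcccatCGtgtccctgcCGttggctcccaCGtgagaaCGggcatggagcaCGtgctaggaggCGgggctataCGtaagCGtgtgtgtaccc
Atoh1: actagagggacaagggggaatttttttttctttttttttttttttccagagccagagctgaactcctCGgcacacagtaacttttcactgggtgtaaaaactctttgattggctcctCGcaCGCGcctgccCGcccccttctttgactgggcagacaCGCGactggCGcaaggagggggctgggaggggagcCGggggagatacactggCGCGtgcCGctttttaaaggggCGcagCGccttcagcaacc
Rbmxl1: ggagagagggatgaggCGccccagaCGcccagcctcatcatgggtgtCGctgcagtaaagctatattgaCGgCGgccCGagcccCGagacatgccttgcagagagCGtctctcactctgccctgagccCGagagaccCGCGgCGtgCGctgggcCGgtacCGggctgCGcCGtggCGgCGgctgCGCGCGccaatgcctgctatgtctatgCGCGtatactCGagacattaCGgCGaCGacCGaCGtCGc
Pou5f1: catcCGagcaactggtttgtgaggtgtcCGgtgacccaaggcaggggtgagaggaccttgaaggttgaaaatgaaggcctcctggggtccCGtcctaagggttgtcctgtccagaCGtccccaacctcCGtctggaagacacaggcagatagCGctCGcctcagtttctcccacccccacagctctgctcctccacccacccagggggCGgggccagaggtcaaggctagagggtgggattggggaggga
The printed stretches hold 6 (Zfp36l3), 24 (Gm40881), 12 (Sycp3), 14 (Atoh1), 31 (Rbmxl1) and 8 (Pou5f1) CG dinucleotides. CG content thus ranged widely within each direction, and the summary over all promoters is given with the region properties.

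Both ES KO lists were longer than both EB KO lists. ES KO replicates 1 and 2 held 29138 and 32874 peaks, and EB KO replicates 1 and 2 held 15205 and 13818. ES lists covered 78.3 and 81.0 Mb and EB lists 39.1 and 39.2 Mb. The stages did not overlap in either measure, and ES KO lists held 2.14-fold more peaks (log2 difference, EB minus ES, −1.09) and 2.03-fold more covered sequence. The exact two-sided permutation p was 0.333, the smallest that 2 against 2 lists allow. WT lists went the same way with 24600 and 22615 peaks in ES and 14334 and 19246 in EB, 1.42-fold more in ES. The difference of the stage effect between genotypes was −0.59 on the log2 scale (exact permutation of stage within genotype over 36 assignments, two-sided p = 0.389). Without the 2 lists of the other library series it was −0.29, and without EB WT replicate 2 alone −0.38.

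Most of the difference in number lay away from gene ends. Peaks farther than 2500 bp from any protein-coding gene end numbered 17595 and 20386 in the ES KO lists and 4280 and 3784 in the EB KO lists, 4.71-fold more in ES. Peaks at gene ends numbered 11543 and 12488 in ES and 10925 and 10034 in EB, 1.15-fold more in ES. Both measures separated the stages without overlap, at the smallest possible exact permutation p of 0.333. Accordingly 39.6% and 38.0% of ES KO peaks and 71.9% and 72.6% of EB KO peaks lay at a gene end, a mean of 38.8% ± 1.15 (SD, n = 2) against 72.2% ± 0.54 (SD, n = 2). In WT, peaks away from gene ends numbered 12995 and 11457 in ES and 4446 and 8314 in EB, 2.01-fold more in ES. The genotypes' stage effects on the share at gene ends differed by 18.8 percentage points (exact permutation, 36 assignments, p = 0.333).

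**Figure D1:**
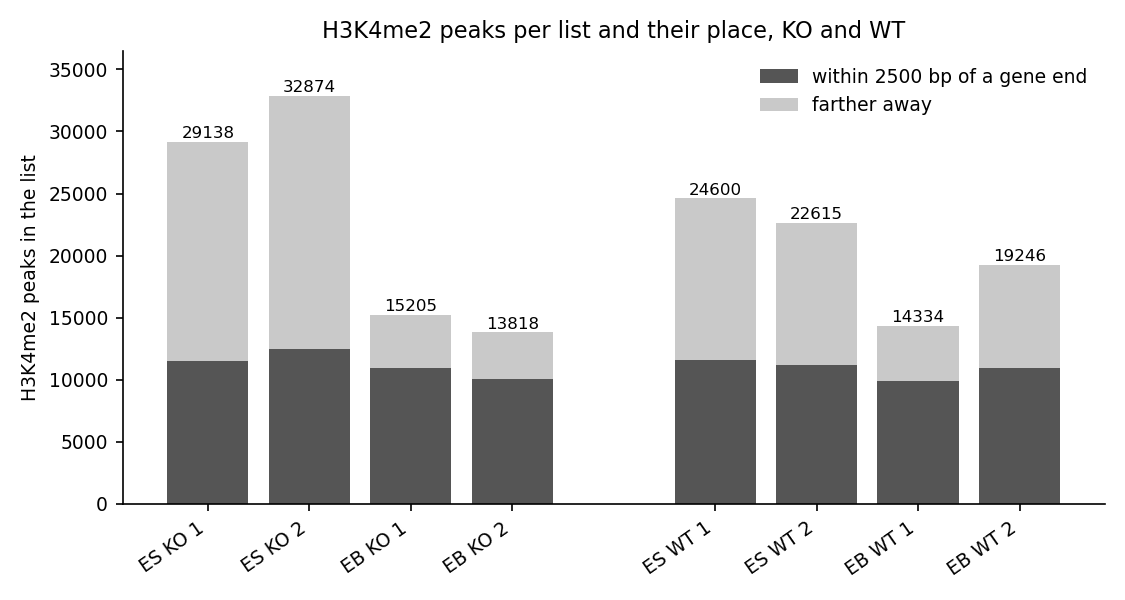
Number of H3K4me2 peaks in each of the 4 Prdm16 KO lists and, beside them, the 4 WT lists (y axis), split into peaks within 2500 bp of a protein-coding gene end and peaks farther away; each bar is 1 library. The parts at gene ends run from 10034 to 12488 in the KO lists, while the parts away from gene ends run from 17595 to 20386 in ES KO and from 3784 to 4280 in EB KO.

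Of the 38913 merged KO regions, 14201 were ES-only (36.5%) and 1395 were EB-only (3.58%). The other 4 choices of 2 of the 4 lists, each of which takes 1 list per stage, held 81 (ES 1 with EB 1), 44 (ES 1 with EB 2), 263 (ES 2 with EB 1) and 137 (ES 2 with EB 2) regions. Both stage classes therefore exceeded every mixed choice. Another 9731 regions (25%) had a peak in all 4 lists. Regions found in a single list numbered 2727 and 5482 for the ES KO lists and 1293 and 794 for the EB KO lists. The WT lists gave 6668 ES-only (20.3%) and 1807 EB-only (5.51%) of 32800 regions, with 38 to 502 in the mixed choices.

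The excess of ES-only over EB-only regions depended on list length. When each list was limited to its 13818 highest-scoring peaks, the length of the shortest, 3345 regions were ES-only and 2772 EB-only, a ratio of 1.21 in place of 10.2. Leaving out 1 list, so that the other decides for its stage, gave 14992 to 19997 ES-only and 1529 to 2712 EB-only regions. EB-only regions numbered 2197 without EB KO replicate 1 and 2712 without EB KO replicate 2. Without ES KO replicate 2, of the other library series, 17030 were ES-only and 1974 EB-only. Of the 26000 regions in both ES KO lists, 37.4% had a peak in all 4 lists, and of the 11823 in both EB KO lists, 82.3% did. The EB KO peaks were thus largely a subset of the ES KO peaks. In WT the same shares were 54.2% of 19367 and 78.8% of 13324.

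Stage-only regions carried low scores for their own lists. The score is the authors' deposited value per peak, and a percentile here is the rank of a peak's score among all peaks of its list, with ties at their mean rank and 100 the highest. ES-only regions had median percentiles of 39.6 and 44.3 in ES KO replicates 1 and 2, and EB-only regions 42.1 and 35.9 in EB KO replicates 1 and 2. Shared regions stood at 79.3, 82.0, 64.2 and 61.2 in the 4 lists in that order. When the regions found in both ES KO lists were split into 5 equal groups by score, 85.6% of the lowest group were ES-only (95% Wilson interval 84.7 to 86.6), then 77.1%, 61.6% and 37.0%, and 11.8% of the highest (11.0 to 12.7). For the regions of both EB KO lists the EB-only share went from 22.7% in the lowest group to 3.21% in the highest. Intervals cover counting error over regions only.

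**Figure D2:**
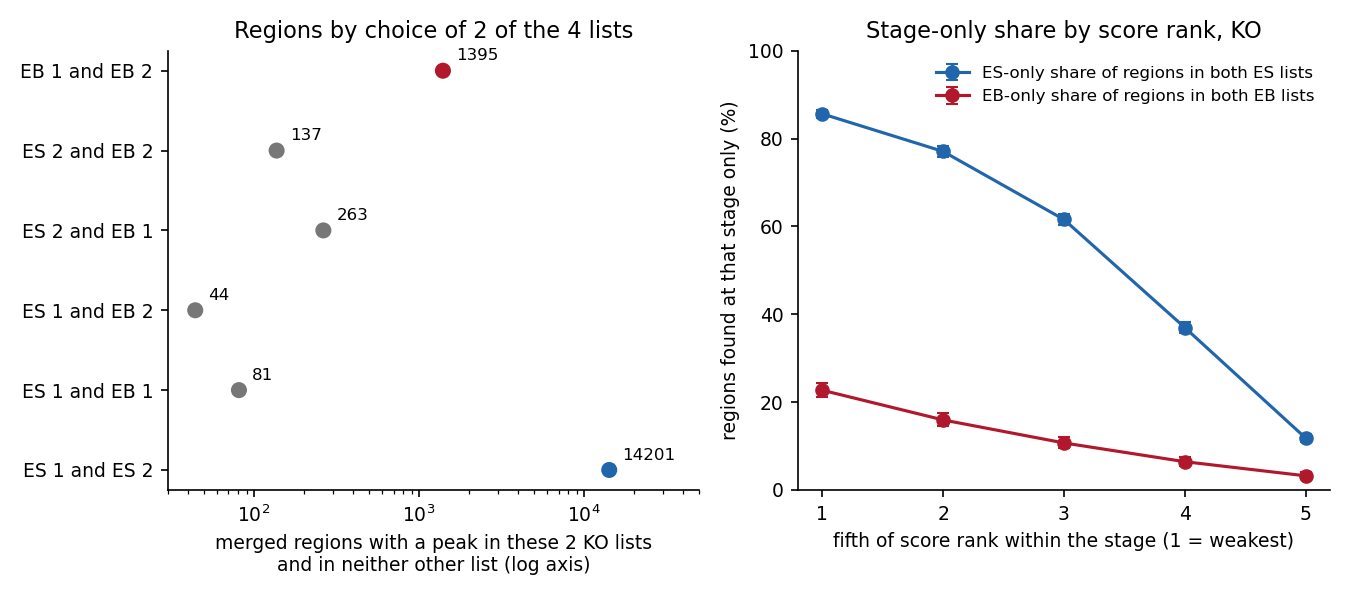
Left, number of merged KO regions with a peak in exactly the 2 named lists of 4 (log axis); right, share of regions found at 1 stage only by group of score rank within the stage, with 95% Wilson intervals. The ES-only and EB-only points, 14201 and 1395, lie to the right of the 4 mixed choices (44 to 263). The ES-only share goes from 85.6% in the lowest-scoring group to 11.8% in the highest.

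The classes differed in place and width. Among ES-only regions 2314 (16.3%, 95% Wilson interval 15.7 to 16.9) lay at a protein-coding gene end, 5.61% covered a transcription start and the median distance to a gene end was 18516 bp. Among EB-only regions 989 (70.9%, 68.5 to 73.2) lay at a gene end, 54.6% covered a start, and the median distance was 0 bp. Shared regions resembled the EB-only ones, with 80.3% at a gene end and 66.5% over a start. The placement held with lists of equal length, where 18.5% of ES-only and 73.9% of EB-only regions lay at a gene end. Median widths were 1947 bp for ES-only, 4068 bp for EB-only and 3814 bp for shared regions, and 4.03%, 15.1% and 15.1% of them spanned 6000 bp or more. ES-only regions farther than 50000 bp from any gene end made up 25.3% of their class, against 8.53% of EB-only regions.

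Stage-only regions lay on all autosomes. ES-only regions made up 32.5% to 40.2% of the merged regions of each autosome and EB-only regions 2.02% (chromosome 13) to 4.93% (chromosome 11). On the X chromosome 252 of 850 regions (29.6%) were ES-only and 8 (0.941%) were EB-only. Both X shares lay below those of every autosome.

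Promoters starting in the classes differed in CG content over the RefSeq entries, which run from 250 bases before to 49 after the start. The 887 promoters in ES-only regions held a median of 10 CG dinucleotides and 50.4% held 10 or more. The 985 in EB-only regions held a median of 23 (86.2% with 10 or more), and the 8165 in shared regions 22 (88.4%). For comparison, the 8669 promoters in no KO region held a median of 3 and all 21263 entries a median of 13. Of the motifs searched on both strands, the POU octamer ATGCAAAT was in 2.25% of ES-only, 1.12% of EB-only and 1.66% of all promoters, the GATA motif AGATAAG in 3.27%, 1.42% and 2.64%, and the homeobox motif TAATTA in 4.06%, 2.13% and 4.53%. The SOX motif ACAATGG was in 3.04%, 2.34% and 2.92%, the ESRRB motif TCAAGGTCA in 0.338%, 0.102% and 0.334%, and the KLF motif GGGTGTGG in 2.93%, 3.55% and 3.63%. The E box CAGCTG was in 20.1%, 13.9% and 15.6%, and the TEAD motif GGAATG in 15.3%, 11.4% and 13.6%. The ESRRB motif was in 3 ES-only and 1 EB-only promoters and the POU octamer in 20 and 11, so those shares rest on few promoters. All but the KLF motif were less frequent in the CG-rich EB-only promoters than in the ES-only ones. These are letter matches, described without a test.

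The WT lists, which took no part in the classing, had the same order of stages at these regions. At KO ES-only regions, WT H3K4me2 peaks were present at 62.0% and 55.6% in the ES lists and 6.42% and 15.7% in the EB lists, 47.7 percentage points lower in EB. At KO EB-only regions they were present at 22.8% and 20.7% in ES and 68.0% and 74.6% in EB, 49.5 points higher in EB. Over all merged KO regions the shares were 59.1% and 54.8% in ES and 34.5% and 42.5% in EB. The ES-only regions thus stood near all regions in the WT ES lists and below them in the WT EB lists. Each pair of stages was separated without overlap, at the smallest possible exact permutation p of 0.333. As classes, 5139 of the KO ES-only regions (36.2%) were also ES-only in WT, 527 (3.71%) were in all 4 WT lists, 122 (0.859%) were EB-only and 3736 (26.3%) had no WT peak. Of the KO EB-only regions, 589 (42.2%) were EB-only in WT, 125 (8.96%) were in all 4 WT lists, 31 (2.22%) were ES-only and 195 (14.0%) had no WT peak.

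H3K4me1, the mark more typical of enhancers, was compared in the KO and the WT lists. In the KO H3K4me1 lists, ES-only regions had a peak at 37.1% and 34.9% in ES and 7.68% and 5.22% in EB, 29.5 points lower in EB (exact permutation p = 0.333). EB-only regions had one at 17.3% and 15.0% in ES and 24.5% and 16% in EB, where the stages overlapped (difference 4.09 points, exact permutation p = 0.667). Split by place, the 406 EB-only regions away from gene ends carried KO H3K4me1 at 15.8% and 13.8% in ES and 41.4% and 25.6% in EB, and the 989 at gene ends at 18% and 15.5% in ES and 17.6% and 12.0% in EB. The stages did not overlap away from gene ends and overlapped at gene ends, and the difference between the places was not tested. In the WT H3K4me1 lists, ES-only regions had a peak at 36% and 31.9% in ES and 12.1% and 11.7% in EB, and EB-only regions at 19.9% and 16.2% in ES and 30.8% and 29.2% in EB. The WT stages thus did not overlap in either class, by −22.0 and 12.0 points (exact permutation p = 0.333 each). Shared regions carried KO H3K4me1 at 26.9% and 26.7% in ES and 13.5% and 10.2% in EB, so the ES lists were higher there too. Over all merged KO regions the KO H3K4me1 shares were 28.4% and 27.0% in ES and 11.3% and 8.21% in EB. The WT H3K4me1 shares were 29.2% and 25.2% in ES and 17.3% and 16.2% in EB. PRDM16 peaks lay in at most 1.15% of the regions of any class in any PRDM16 list, the maximum being EB-only regions in ES KO replicate 2. The PRDM16 lists held only 146 to 586 peaks each, against 38913 regions. A low share of regions is therefore no measure of how many PRDM16 peaks lay in them.

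**Figure D3:**
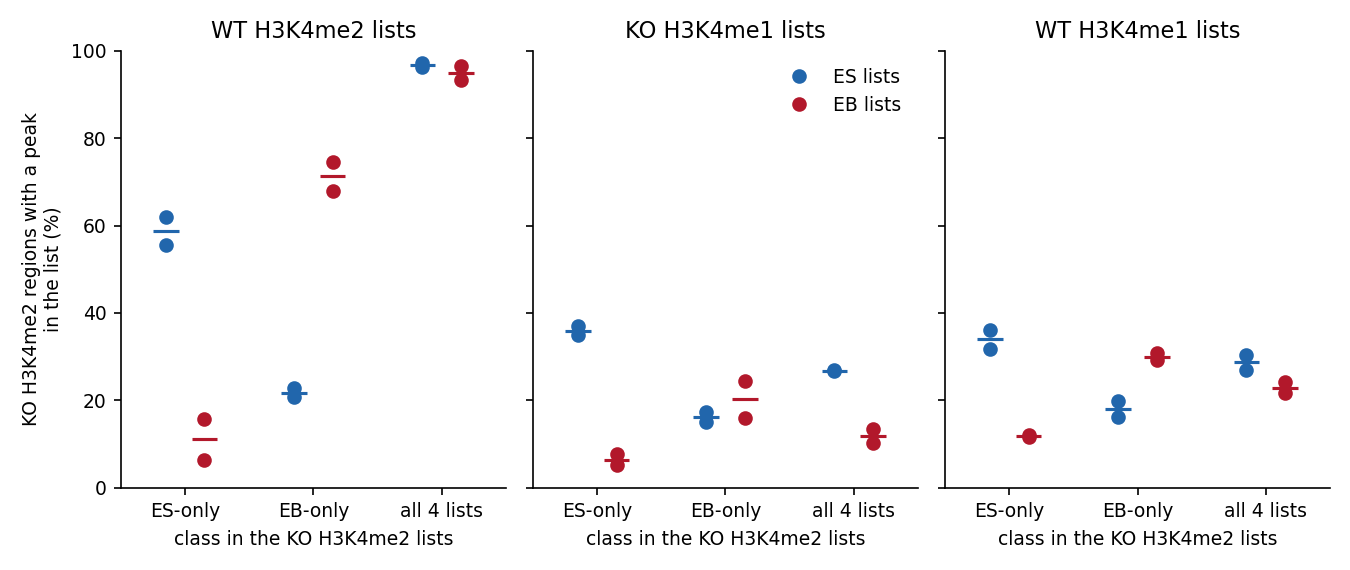
Share of KO ES-only, EB-only and shared H3K4me2 regions that had a peak in each WT H3K4me2, KO H3K4me1 and WT H3K4me1 list (y axis, %); each point is 1 library, coloured by stage. For WT H3K4me2 the ES libraries sit at 55.6% to 62.0% and the EB libraries at 6.42% to 15.7% in ES-only regions, and the order is turned in EB-only regions.

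The highest-scoring regions of each class are described next, with their percentiles in the 2 lists of the stage. Among ES-only regions at gene ends, that of Efnb2, which encodes an ephrin ligand (chr8:8618678-8621973), stood at 99.1 and 98.7, and that of Maf, a bZIP transcription factor gene (chr8:115704829-115709857), at 98.6 and 98.6. The Maf region had a peak in all 4 WT lists, so it lacked an EB peak in KO and not in WT. Next came regions at Zfp36l3 and Xlr (chrX:53773996-53776767), Gm40881 (chr12:20311747-20313690) and Gpc3, a glypican gene (chrX:52611966-52614793). Away from gene ends the leading ES-only regions lay 65389 bp from Med10 and 120425 bp from Ptgfr, among others near Fndc1, Gm7609 and Trpm3. The widest ES-only regions spanned 9987 bp (near Nav1) to 11800 bp (near B4galt1).

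Among EB-only regions at gene ends, Slc1a5, a glutamine transporter gene (chr7:16780617-16785365), stood at 98.9 and 99.3 but had a peak in all 4 WT lists. Atoh1 (chr6:64727135-64731527) stood at 97.0 and 99.0 and had no peak in any WT list. Epb41l4a (98.8 and 96.6) came next, again with a peak in all 4 WT lists, then Jam2, a junctional adhesion molecule gene (chr16:84773019-84775512), and Rbmxl1 with Slc10a7 (chr8:78506520-78511672), both with WT peaks in EB only. After them came Myo1e, Zfp930, Ss18 and Ddx39a, whose regions had a WT peak in both EB lists and at least 1 ES list, and Elovl6, a fatty acid elongase gene (chr3:129531670-129536690), with WT peaks in EB only. Away from gene ends, the first lay inside Ash2l, a core subunit gene of the H3K4 methyltransferase complexes (chr8:25839315-25842860, 4834 bp from the gene end). The widest EB-only region, 10649 bp, lay at Sox6 (chr7:116030256-116040904), a SOX transcription factor gene.

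Counts of marked genes were closer between the stages than counts of peaks. Of 21887 protein-coding genes, 11968 and 12726 were marked in the ES KO lists and 12013 and 11283 in the EB KO lists, and these ranges overlapped. In all 4 lists 9128 genes (41.7%) were marked, 1371 (6.26%) were ES-only and 902 (4.12%) were EB-only. With lists of equal length the order of the last 2 counts turned, to 446 ES-only and 2267 EB-only genes. With transcription starts alone, known for 17492 genes, 907 (5.19%) were ES-only and 865 (4.95%) EB-only, beside 3.53% and 3.72% in WT. EB-only genes numbered 1421 without ES KO replicate 2, and ES-only genes 2071 without EB KO replicate 1. The gene counts thus changed their order with list length. Peaks away from gene ends stayed more numerous in ES at equal list length, 5907 and 5667 against 3451 and 3784 in EB (log2 difference −0.68 in place of −2.23).

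The KO gene calls were set beside those of the WT lists, which share no library with them. In WT, 941 genes were ES-only (4.3%) and 722 EB-only (3.3%). ES-only in both genotypes were 420 genes, 30.6% of the KO list and 44.6% of the WT list. EB-only in both were 351 genes, 38.9% of the KO list and 48.6% of the WT list. Opposite calls were made for 27 genes each way, 1.97% of the KO ES-only and 2.99% of the KO EB-only genes. Those opposite calls numbered 54 in all, 104 without ES WT replicate 2 and 103 without EB WT replicate 1. The remaining KO ES-only genes were mixed (550), marked in all 4 lists (172) or unmarked (202) in WT. The remaining KO EB-only genes were mixed (317), marked in all 4 (79) or unmarked (128).

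Per WT list, KO ES-only genes were marked at 71.0% and 66.9% in ES and 19.8% and 38.1% in EB, and KO EB-only genes at 27.2% and 21.0% in ES and 69.7% and 71.0% in EB. The stages were separated without overlap in both gene sets, by 40.0 points towards ES and 46.3 points towards EB (exact permutation p = 0.333 each). In the KO H3K4me1 lists, ES-only genes were marked at 31.7% and 31.4% in ES and 12.2% and 7.95% in EB. EB-only genes were marked at 26.8% and 21.7% in ES and 19% and 14.4% in EB, a difference of −7.59 points. Genes marked in all 4 H3K4me2 lists differed by −17.5 points in the same H3K4me1 lists, which held 14945 and 13901 peaks in ES and 8943 and 5990 in EB. The lower values in EB were thus seen in each gene set.

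Genes with the same call in both genotypes and the highest scores included, on the ES side, Xlr and Zfp36l3 (X chromosome) and the germ cell genes Sohlh2 (percentiles 95 and 93.5) and Sycp3 (91.6 and 98.4). On the EB side they included Elovl6 (92.8 and 95.4), L1td1, an RNA-binding protein gene of pluripotent cells (92.0 and 96.9), Tkt, which encodes transketolase (89.1 and 92.9), Rbmxl1, Slc10a7 and Tet2. Without the same call in WT, the leading ES-only genes were Maf, Gpc3, Zfp993 and Cartpt, and the leading EB-only genes were Atoh1, Myo1e, Zfp930 and Ss18. Opposite calls included Ldhb, a lactate dehydrogenase subunit gene that was EB-only in KO (69.1 and 89.5) and ES-only in WT, Sirpa and Onecut1 likewise, and in the other direction Dcaf12l2, Cfi and Mapk10.

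Pluripotency genes were marked at both stages. Of 26, the KO lists marked 11 and 10 in ES and 12 and 13 in EB. EB-only calls were made for 8 (30.8%, against 4.12% of all genes): Pou5f1, Klf2, Klf5, Prdm14, Tdgf1, Utf1, Tet1 and Tet2. ES-only calls were made for 4 (15.4%, against 6.26%): Dppa2, Dppa3, Dppa4 and Tcl1. Klf4, Tfcp2l1 and Lin28a were marked in all 4 lists, and Sox2, Tbx3, Dppa5a, Fbxo15 and Sall4 in none. WT gave 6 EB-only and 2 ES-only genes, so stage-only calls went both ways in both genotypes. At equal list length 9 (34.6%, against 10.4% of all genes) were EB-only and 1 ES-only in KO.

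The EB-only peaks of this list ranged from weak to strong. Pou5f1, encoding OCT4, had percentiles of 15.1 and 21.1 in the EB KO lists and in WT a peak in EB replicate 2 only. Its 250 bases upstream, printed above with 8 CG, lay in an EB-only region. Tet2 (87.0 and 87.0) and Tet1 (75.7 and 77.0), which encode enzymes oxidising 5-methylcytosine, and Prdm14 (82.2 and 71.5), a PR domain gene of naive pluripotency, stood higher. The transcription factor genes Klf2 (84.2 and 47.7) and Klf5 (64.2 and 54.3) lay in the middle, and Utf1 (27.9 and 15.0) and the Nodal co-receptor gene Tdgf1 (32.7 and 9.87) were low. On the ES-only side Dppa4 (79.0 and 69.9) and Tcl1 (51.3 and 51.4) exceeded Dppa2 (21.5 and 19.5) and Dppa3 (4.07 and 13.8). Within 20000 bp of the locus, Esrrb, a naive pluripotency factor gene, had 5 and 6 peaks in ES KO and 1 and 1 in EB KO, while Nanog had 1 peak in EB KO replicate 2 only. In the same wider window Pou5f1 had 1 and 2 peaks in ES KO and 2 and 2 in EB KO, and Tet1 2 and 1 against 3 and 4. The EB-only calls of Pou5f1 and Tet1 thus hold for the 2500 bp windows at the gene ends. They do not hold for the wider window, which also takes in the gene body. Tet1 had 1 peak in ES KO replicate 1 already within its span and 2500 bp either side.

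Stage-only calls of lineage genes changed their order with list length. In 9 lists of lineage genes (neuroectoderm, Notch and proneural, neuronal differentiation, blood and endothelial, cardiac, primitive streak and mesoderm, trophoblast, endoderm, Hox), which hold 197 members counted per list, 24 genes (12.2%) were ES-only in KO and 7 (3.55%) EB-only, beside 6.26% and 4.12% of all genes. The WT counts were 32 and 3. At equal list length 6 were ES-only and 10 EB-only in KO, beside 2.04% and 10.4% of all genes. Without EB KO replicate 1 the counts were 38 and 11, and without EB KO replicate 2 they were 27 and 11.

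Neural and Notch genes had calls in both directions. ES-only and EB-only shares were 4.55% and 9.09% (neuroectoderm), 15.4% and 7.69% (Notch and proneural) and 15% and 5% (neuronal differentiation). Over all genes they were 6.26% and 4.12%. At equal list length they were 0% and 13.6%, 0% and 7.69%, and 5% and 10% in that order, beside 2.04% and 10.4% of all genes. Of 22 neuroectoderm genes, Zic1 was ES-only (37.1 and 21.0) and the homeobox genes En2 (22.0 and 31.7) and Nkx2-2 (48.0 and 20) were EB-only; in WT 7 were ES-only and none EB-only, Nkx2-2 among the 7 (47.5 and 51.9 in the ES lists). Of 26 Notch and proneural genes, the ligand gene Dll4 (20.4 and 26.5), Rbpj, the DNA-binding effector of Notch (32.1 and 40.6), the target gene Heyl (29.1 and 45.9) and Neurog1 (45 and 76.5) were ES-only. Atoh1 and Neurog3 (7.09 and 39.8) were EB-only. Among 20 neuronal differentiation genes, Syp, Elavl3 and the neurofilament gene Nefm (85.5 and 92.0) were ES-only, and Onecut1 (39.6 and 34.1) was EB-only in KO but ES-only in WT. Of 18 primed epiblast genes, Tcf15 (62.2 and 43.8) and Etv4 (55.3 and 23.8) were EB-only (11.1%) and 0 were ES-only.

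With the full lists, mesoderm, cardiac, blood and endoderm genes were mostly ES-only where they differed. Their ES-only shares were 13.6%, 12.5%, 5.56% and 10%, beside 6.26% of all genes, so the blood share was not above that of all genes. Of 22 primitive streak and mesoderm genes, Wnt3, a primitive streak ligand gene (86.5 and 84.1), Msgn1 (50.4 and 65.0) and Tcf21 were ES-only, and Snai1, a regulator of epithelial to mesenchymal transition, was EB-only with weak peaks (4.63 and 1.68) although ES-only in WT. Cardiac genes gave Isl1 (60.6 and 62.3; ES-only in WT too, 57.6 and 56.3) and Myl2 of 16, blood and endothelial genes Tek (73.0 and 77.1) of 18, and endoderm genes Foxa3 (55.3 and 43.1) and Afp (29.3 and 36.7) of 20, all ES-only. Of 14 trophoblast genes Krt7 was ES-only and Tfap2c EB-only. At equal list length the mesoderm and the trophoblast genes each gave 1 ES-only and 1 EB-only call. The cardiac and the blood genes each gave 1 ES-only call there, and the endoderm genes 1 EB-only call. At that length 2.04% of all genes were ES-only and 10.4% EB-only. The EB-only shares of the mesoderm, trophoblast and endoderm genes, 4.55%, 7.14% and 5%, lay below that of all genes. The ES-only shares of the mesoderm, trophoblast, cardiac and blood genes, 4.55%, 7.14%, 6.25% and 5.56%, lay above it but were 1 gene each.

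Fewer Hox genes were marked in EB than in ES. Of 39 Hox genes, which set position along the body axis, 12 and 16 were marked in ES KO and 4 and 5 in EB KO, without overlap. ES-only calls were made for 7 (17.9%, against 6.26% of all genes) and EB-only calls for 0. The 7 were Hoxb1 (73.5 and 80.3), Hoxc8, Hoxc10 (21.0 and 52.5), Hoxd3, Hoxd8, Hoxd9 and Hoxd13 (50.3 and 29.5). In WT 22 and 22 were marked in ES and 5 and 14 in EB, and 7 were ES-only, of which 3 (Hoxc10, Hoxd3, Hoxd13) were the same genes. With lists of equal length 1 Hox gene was ES-only in KO (2.56%, near the 2.04% of all genes), so the higher ES-only share was seen only with the full lists.

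**Figure D4:**
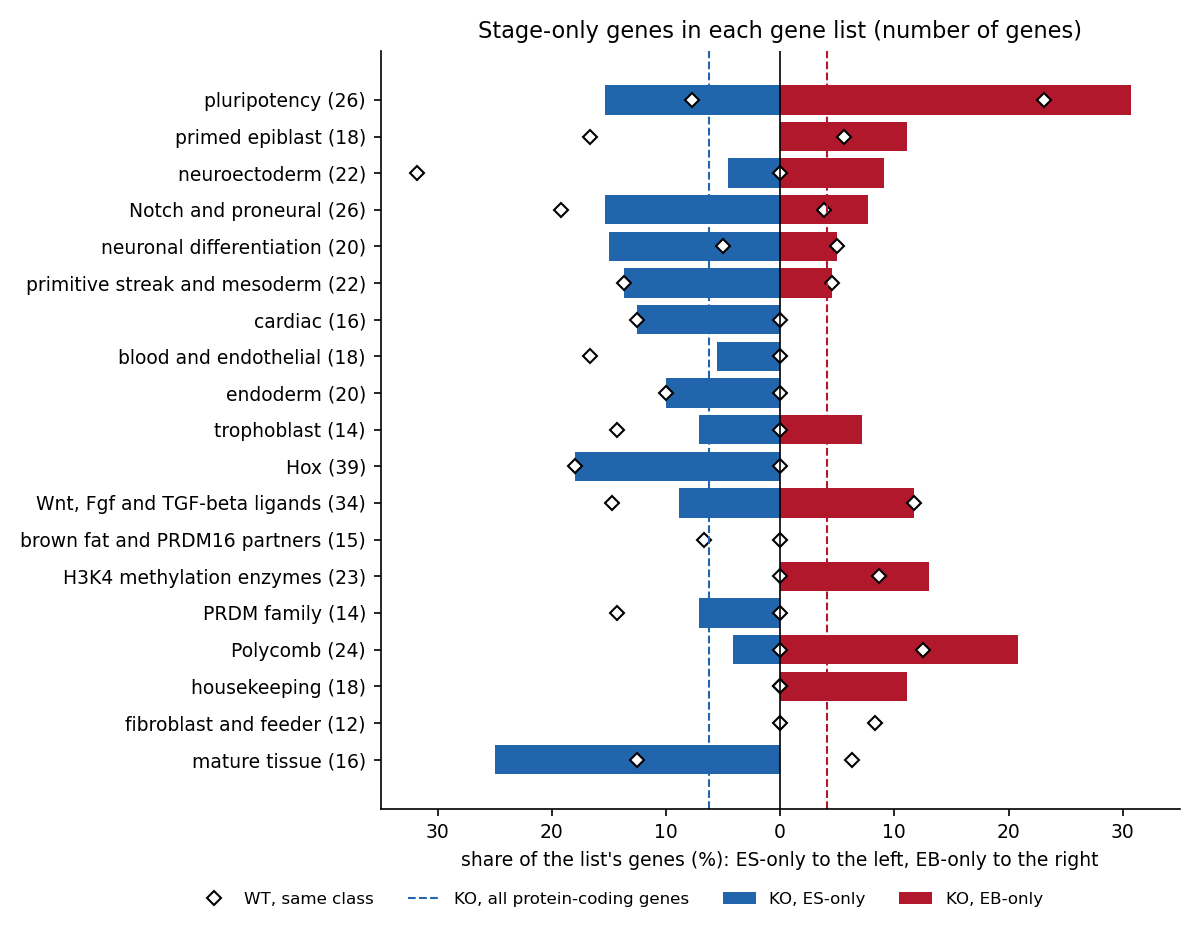
Share of each gene list's members that were ES-only (bars to the left) or EB-only (bars to the right) in the KO lists, with the WT shares as diamonds and the KO share over all protein-coding genes as dashed lines (6.26% and 4.12%); numbers after the names are genes in the list. With the full lists shown here, the pluripotency list reaches 30.8% EB-only and the Hox list 17.9% ES-only.

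Signalling ligands and chromatin regulators were marked at both stages. Of 34 Wnt, Fgf and TGF-beta ligand genes, Wnt6 (57.8 and 64.6), Fgf1 and Bmp7 (39.1 and 42.4) were ES-only. EB-only were Fgf4 (42.2 and 39.6), Fgf17, Gdf3 (75 and 46.1) and Inhbb (76.0 and 91.5). These shares were 8.82% and 11.8%, beside 6.26% and 4.12% of all genes. At equal list length they were 2.94% and 11.8%, near the 2.04% and 10.4% of all genes. Within 20000 bp of its locus Fgf4 had 1 and 2 peaks in ES KO and 2 and 1 in EB KO. Polycomb genes, whose products silence developmental genes, were marked in 11 and 11 (ES) and 17 and 13 (EB) of 24. EB-only calls were made for 5 (20.8%, against 4.12%), the PRC2 core gene Eed (62.0 and 15.4), Jarid2 (14.7 and 4.64), Mtf2 (87.8 and 82.7), Pcgf2 and Cbx6 (41.7 and 75.3), and Cbx7 (27.7 and 56.8) was ES-only; in WT 3 were EB-only.

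Genes that act on H3K4 methylation gave 3 EB-only (4.12% of all genes were) and 0 ES-only of 23: the methyltransferase gene Kmt2b (33.3 and 17.0), the demethylase gene Kdm1a (78.1 and 54.1) and the complex subunit gene Rbbp5 (78.8 and 64.5). In all 4 lists 11 were marked, Kmt2c, Kmt2d and Wdr5 among them, where 41.7% of all genes were. Of 14 PRDM family genes 10 were marked in all 4 KO lists, and Prdm10 (81.2 and 32.5) was ES-only. Of 15 brown fat genes and PRDM16 partners 9, among them Pparg, Ppargc1a, Cidea, Ehmt1 and Med1, were marked in all 4 lists and 0 were stage-only.

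Markers of mature tissues also carried stage-only peaks. Of 16 mature tissue genes 4 were ES-only (25%, against 6.26% of all genes) and 0 were EB-only. The 4 were Cd3e (66.0 and 57.6), Gfap, Lyz2 (69.2 and 88.0) and Slc34a1, from T cells, astrocytes, myeloid cells and kidney. At equal list length 1 of them was ES-only (6.25%, against 2.04% of all genes). Of 12 fibroblast and feeder genes 5 were marked in all 4 lists and 6 in none, with 0 stage-only. Of 18 housekeeping genes 8 were marked in all 4 lists, Pgk1 and Hsp90ab1 were EB-only, and 6, including Gapdh and Actb, were marked in none. Over all 19 lists, 397 genes, 37 (9.32%) were ES-only and 31 (7.81%) EB-only, beside 6.26% and 4.12% of all genes. Equal list lengths gave 9 (2.27%) and 43 (10.8%), near the 2.04% and 10.4% of all genes, and without EB KO replicate 1 ES-only genes numbered 59.

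The targeted gene, Prdm16 (chr4:154316122-154637360), was covered in its span and 2500 bp either side by 11 and 13 peaks (30.3 and 25.8 kb) in the ES KO lists and by 0 and 0 in the EB KO lists. WT lists had 8 and 6 peaks in ES (13.2 and 11.1 kb) and 3 and 4 in EB. Both ES KO lists thus exceeded both ES WT lists and both EB KO lists lacked the peaks of the EB WT lists. A peak list over an allele that the labels do not describe is no check of the KO.

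Around transcription starts the stage difference had opposite sign in the genotypes for peak width and for coverage 2000 bp to either side. The median width of peaks over a start was 3310 and 3120 bp in ES KO and 2816 and 3050 bp in EB KO, and 3052 and 2963 bp in ES WT and 3655 and 3924 bp in EB WT. Width, EB minus ES, differed by −282 bp in KO and by 782 bp in WT, a difference between genotypes of −1064 bp. The share of starts with a peak 2000 bp downstream was 23.0% and 23.1% in ES KO and 20.5% and 21.5% in EB KO, against 22.4% and 21.2% in ES WT and 28.4% and 32.7% in EB WT. The stage effects differed by −10.7 points there and by −7.08 points 2000 bp upstream. At the start itself they differed by −4.99 points (exact permutation p = 0.222). The width and both flanks were picked from 12 measures because their stage differences were opposite and without overlap, which fixes their exact p at 0.0556, the smallest of the design, so that p is no test of them. At equal list length the KO differences at 2000 bp were above 0, 5.41 points downstream and 2.49 upstream, below the 12.0 and 6.31 of WT. Without EB WT replicate 2, of the other library series, WT width was 647.5 bp higher in EB and downstream coverage 6.54 points higher; without ES KO replicate 2 the KO values were −377 bp and −1.97 points. The KO width difference was −165 bp without EB KO replicate 1 and −135 bp at equal list length. The 2 EB WT lists held the highest values of the 8 lists in each of the 3 measures.

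**Figure D5:**
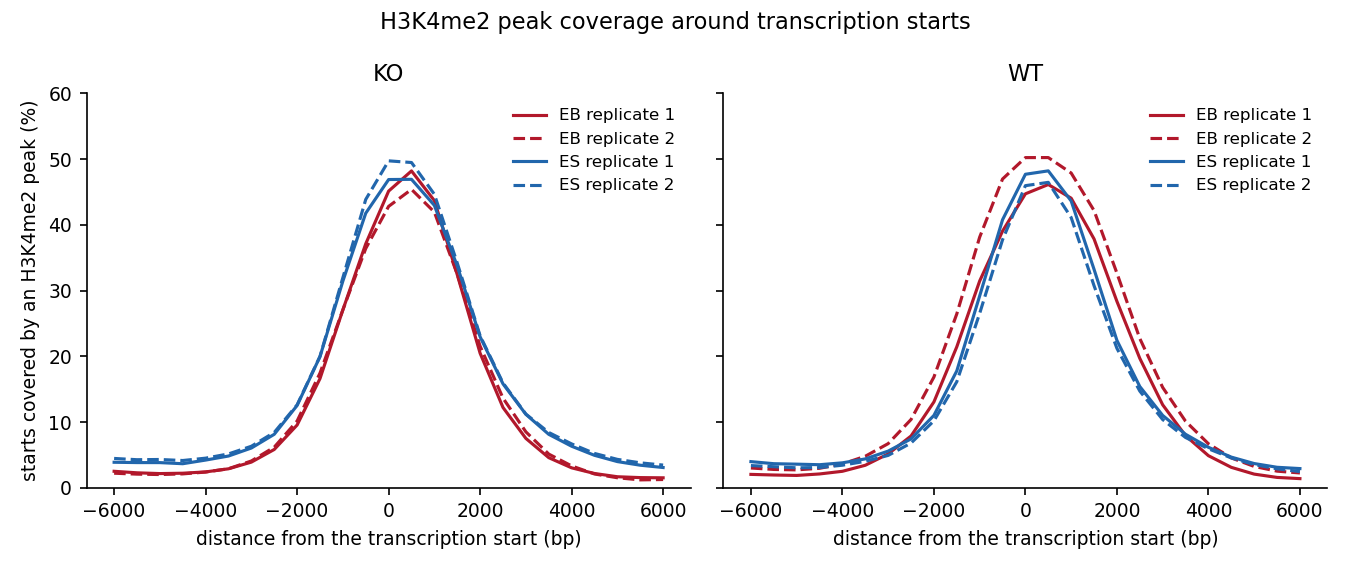
Share of 17492 genes' transcription starts (y axis, %) with an H3K4me2 peak at each distance from the start (x axis, bp, 0 is the start), 1 line per library, KO and WT in separate panels. At 2000 bp on either side of the start the ES lines lie above the EB lines in KO (downstream 23.0% and 23.1% against 20.5% and 21.5%). In WT the EB lines lie above there (downstream 28.4% and 32.7% against 22.4% and 21.2%). The order does not hold at every distance. At 500 bp downstream EB KO replicate 1 (48.2%) lies above ES KO replicate 1 (46.9%). At 6000 bp upstream both EB WT lines (2.05% and 3.02%) lie below both ES WT lines (3.99% and 3.39%).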

How the data were processed

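Peaks were called library by library, and each deposited list gives positions, a peak name from MACS and the authors' score for every peak. What the score measures is not stated there. It was at least 50 throughout and served to order peaks inside 1 list. MACS2, HOMER 4.10, SAMtools 1.5, Bowtie2, deepTools and bedtools are named by the submitters' processing notes, which give mm10 as the build and no order of steps. For control libraries, duplicates and depth, the sources used here give nothing. The 1 mitochondrial peak of each list was left out.

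Overlapping peaks were merged by 1 bp or more with Python 3.11.15, pandas 2.3.3 and numpy 2.4.6, and plots used matplotlib 3.10.9. Genes and promoters came from RefSeq tables of GRCm38.p6, and all 397 list entries matched. Exact permutation tests took libraries as units. The region classing was tested on simulated lists. Named genes are stage-only members of the lists, the highest-scoring and widest regions, and the highest-scoring genes with the same, no same or opposite WT call; others were chosen after their values were seen. The regions, lists and tests were chosen with earlier results of these data known. The alternatives were score cuts, equal list length, merging distance, overlap, contigs, gene window, each list left out and a replicate block.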

Additional observations from a re-analysis of the deposited data

Results flagged for a closer look

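The stage difference of peak width over transcription starts, and of coverage 2000 bp to either side, had opposite sign in the genotypes. The median width of peaks over a start was lower in EB than in ES by a mean difference of −282 bp in KO and higher by 782 bp in WT. The share of starts covered 2000 bp upstream differed by −2.72 points in KO and 4.36 points in WT, and that 2000 bp downstream by −2.04 and 8.69 points. These 3 measures were picked from 12 because the stage differences were opposite and did not overlap, which fixes the exact permutation p of the difference at 0.0556, the smallest that 36 assignments allow, so the difference was not tested apart from that choice. With lists of equal length both KO coverage differences turned sign.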

How the results depend on the processing

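With the higher-scoring 50% of each list, 6419 regions were ES-only and 591 EB-only, and genes were 2066 and 529. With equal list length, regions were 3345 and 2772, genes 446 and 2267, ES-only genes of the 19 lists 9, genes ES-only in both genotypes 164, EB-only in both 868, and ES-only regions over a start 8.76%; starts covered, EB minus ES in KO, turned to 2.49 points at 2000 bp upstream and 5.41 downstream. With a score of at least 100, EB-only regions were 583 and genes 2204 and 472. ES-only genes were 2358 where 50% of a region had to be covered and 907 by the start alone (22 of the 19 lists). With a gene window of 10 kb, EB-only genes were 599 and EB-only in both genotypes 227. Leaving out 1 list gave 14992 to 19997 ES-only and 1529 to 2712 EB-only regions, 1581 to 2071 and 1036 to 1421 genes, 43 to 59 ES-only genes of the 19 lists and 65 to 104 opposite calls. Of the tested alternatives of the main results, 103 stayed within 1.5 times or kept direction and 27 moved. The 103 include the replicate block, whose values could not move. In no alternative did ES-only regions fall below EB-only regions. Why counts moved was not tested beyond the construction of each alternative. The alternatives that moved counts take fewer peaks, fewer lists, another overlap rule or another gene window.

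Equal replicate numbers did not pair the KO lists: their deviations from the stage means correlated at r = 0.00219 for peak presence. With the replicate number as a block, the counts are the same by definition (14201 and 1395 regions, 1371 and 902 genes), so they are no check. The mean differences could not change either. The peak number difference was −1.09 (exact sign-flip p = 0.5) and its difference between genotypes −0.59 (exact permutation p = 0.333). Depth is unknown, and 2 lists per stage allow no p below 0.333.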

Other observations

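Gene families that were looked at after the regions had been seen gave further stage-only counts, described without a test. Of 23 germline genes, 13 and 14 were marked in the ES KO lists and 3 and 3 in the EB KO lists. ES-only in KO were 10 (43.5%, against 6.26% of all genes): Ddx4, Sycp1, Sycp3, Syce1, Tex19.1, Stk31, Sohlh2, Stra8, Nobox and Rhox5, and 0 were EB-only. Many of their peaks were high in their lists, with percentiles in ES KO replicates 1 and 2 of 91.6 and 98.4 for Sycp3, 95 and 93.5 for Sohlh2, 91.6 and 85.5 for Rhox5 and 78.7 and 86.3 for Tex19.1. In WT 7 were ES-only, all of them among the 10. At equal list length 5 were ES-only (21.7%, against 2.04% of all genes).

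Of 83 genes of cytosolic ribosomal proteins, 35 and 40 were marked in ES KO and 60 and 56 in EB KO, so the stages did not overlap. EB-only were 18 (21.7%, against 4.12%) and ES-only 0, and in WT 8 were EB-only, all among the 18, and 4 ES-only. Rps21, among the 18 in KO, was ES-only in WT. The Prss serine protease genes gave 10 ES-only of 39 (25.6%, against 6.26%), among them 7 of the 8 that were ES-only in WT. The Krt keratin genes gave 10 ES-only of 53 (18.9%), among them 1 (Krt4) of the 3 that were ES-only in WT, and 0 were EB-only in either family. With lists of equal length the counts were 31 EB-only ribosomal protein genes (37.3%, against 10.4% of all genes) and 4 ES-only Prss genes (10.3%, against 2.04%). The 1 ES-only Krt gene there (1.89%) was near the 2.04% of all genes. Of 37 Zbtb genes marked in any KO list 9 were EB-only (24.3%, against 6.18% of all genes marked in any KO list).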
